A study of Mus musculus with 27 samples.

Results

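Sash1, Sash3 and Samsn1 make up the SLY/SASH adaptor family, 3 of the 23382 gene symbols measured by RNA-seq here, and were chosen by name, Sash1 being a gene that the study itself names. The cells were B220+ cells, B220 being a surface form of CD45 found on B cells, from the VavP-Bcl2 mouse model of B cell lymphoma, in which a transgene under the Vav promoter expresses the survival gene Bcl2 in blood cells. In both groups, VavP-Bcl2 haematopoietic stem cells from E13.5 fetal liver were infected and transferred into irradiated wild-type mice, and the B220+ cells were isolated from the spleens of the mice, as tumours per the labels. SHMT2 cells carried MSCV-SHMT2, a retrovirus that expresses the mitochondrial serine hydroxymethyltransferase SHMT2, and vector cells carried the empty virus. Each group had 3 RNA-seq libraries and 3 libraries of ERRBS, an enhanced form of reduced representation bisulfite sequencing that measures DNA methylation at CpG-rich fragments. H3K4me1 peak lists came from 2 SHMT2 and 2 vector libraries, and H3K4me3 peak lists from 3 SHMT2 and 2 vector libraries. The ERRBS labels do not repeat the account of the embryos and the transfer, and for SHMT2 replicates 2 and 3 of that assay the transfection label reads SHMT3 and SHMT4, so the titles were followed. The labels do not tie libraries to animals, and a p-value here measures the spread between libraries, part of which may be technical.

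The proteins of this family share a SLY homology region, an SH3 domain and a SAM domain, and hold signalling proteins together without being enzymes. SASH1 is a large, widely expressed scaffold that in human endothelial cells joins the Toll-like receptor adaptor TRAF6 to the kinases TAK1 and IKK, and it is studied as a tumour suppressor because its level falls in several carcinomas. SASH3, also called SLY1, is expressed mainly in lymphocytes, is phosphorylated after antigen receptor stimulation, binds 14-3-3 proteins and is needed for normal lymphocyte development in mice. SAMSN1, also called SLY2 or HACS1, is induced in activated B cells, where it restrains B cell responses.

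The 3 promoters differ in how much of them bisulfite fragments can read, so each is shown with its CG dinucleotides, the sites of DNA methylation, in capitals. The sequences are from RefSeq (GRCm38.p6, the build also called mm10), run from 250 bases before to 50 bases after the annotated start in the direction of transcription, and were matched for 3 of 3 genes.
Sash1, chr10:8886021-8886320, minus strand: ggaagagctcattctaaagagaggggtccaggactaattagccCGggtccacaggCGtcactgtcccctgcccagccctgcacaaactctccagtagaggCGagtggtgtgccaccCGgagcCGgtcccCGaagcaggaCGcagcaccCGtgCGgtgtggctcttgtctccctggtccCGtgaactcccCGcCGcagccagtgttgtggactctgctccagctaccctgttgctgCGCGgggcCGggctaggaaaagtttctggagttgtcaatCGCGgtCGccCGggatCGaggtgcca
Sash3, chrX:48146186-48146485, plus strand: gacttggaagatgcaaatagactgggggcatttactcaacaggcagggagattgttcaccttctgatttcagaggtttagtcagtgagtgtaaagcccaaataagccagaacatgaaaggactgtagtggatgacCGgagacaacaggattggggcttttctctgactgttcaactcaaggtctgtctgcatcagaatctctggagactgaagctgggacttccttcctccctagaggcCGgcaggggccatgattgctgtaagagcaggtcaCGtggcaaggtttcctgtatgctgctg
Samsn1, chr16:75909217-75909516, minus strand: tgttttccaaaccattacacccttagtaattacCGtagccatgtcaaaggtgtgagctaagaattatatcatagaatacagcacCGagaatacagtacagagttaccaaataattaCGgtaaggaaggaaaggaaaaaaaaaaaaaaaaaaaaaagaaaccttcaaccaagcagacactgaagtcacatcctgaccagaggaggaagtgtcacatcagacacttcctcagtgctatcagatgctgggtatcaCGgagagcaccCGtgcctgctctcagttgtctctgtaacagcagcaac

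The Sash1 promoter holds 20 CG in 300 bases, and 26.5% of 32851 RefSeq promoters of this length hold at least as many. Sash3 holds 3 CG, a number that 76.7% of promoters reach, and Samsn1 holds 5, which 62.0% reach. CCGG, the site cut by the enzyme that reduced representation protocols commonly use, reads the same on both strands and each copy contains 1 of the CG counted. It occurs 5 times at Sash1, 2 times at Sash3 and 0 times at Samsn1, and 52.8% of promoters hold at least 1 copy. ERRBS read 22 cytosines in the Sash1 window in all 6 libraries, 2 in the Sash3 window and 0 in the Samsn1 window.

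Sash3 and Samsn1 RNA were abundant and Sash1 RNA was scarce in these cells. Levels are TPM, transcript abundances scaled for length and to the same total in each library, so they can be compared between genes. In each of the 6 libraries Sash3 was highest, Samsn1 next and Sash1 lowest, and the lowest Sash3 value lay above the highest Samsn1 value, as the lowest Samsn1 value lay above the highest Sash1 value. As a percentile among all symbols, Sash3 had 93.5, 93.8 and 94.1 in SHMT2 replicates 1 to 3, against 93.0, 91.4 and 91.9 in vector replicates 1 to 3. Samsn1 had percentiles of 83.1, 81.4 and 84.7 in SHMT2 and 84.0, 78.2 and 82.5 in vector. Sash1 had percentiles of 52.3, 52.9 and 53.3 in SHMT2 and 51.2, 61.7 and 62.2 in vector, near the middle of the table.

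Before the comparison, the libraries were checked. Shmt2 had 244, 345 and 259 TPM in SHMT2 replicates 1 to 3, against 174, 223 and 157 TPM in vector replicates 1 to 3, with no overlap (log2 fold change 0.61, limma adjusted p = 0.216). The 10 B cell markers summed to 9073, 9207 and 8973 TPM in SHMT2 replicates 1 to 3. In vector replicates 1 to 3 they summed to 9568, 7094 and 6995 TPM, so vector replicates 2 and 3 were the lowest. All 10 were detected in each library. Vector replicates 2 and 3 stood apart in markers of other blood cells. Erythroid markers summed to 57.2 to 150.0 TPM in SHMT2, against 66.1, 4174 and 817 TPM in vector replicates 1 to 3. Neutrophil markers summed to 246 to 1271 TPM in SHMT2, against 199, 3765 and 2528 TPM in vector. Plasma cell markers overlapped, at 2186 to 4109 TPM in SHMT2 and 1792 to 3131 TPM in vector, and platelet and stromal markers reached at most 12.5 and 3.17 TPM in SHMT2 and 24.4 and 1.72 TPM in vector. In ERRBS, SHMT2 replicate 2 stood apart. The lowly methylated set was 12895 autosomal 1 kb tiles with at least 20 cytosines and a vector mean under 20%. Of these, 1123 lay at least 10 points above that mean in SHMT2 replicate 2, against 147 in replicate 1 and 16 in replicate 3. The highly methylated set was 54979 autosomal tiles with at least 3 cytosines and a vector mean over 60%. Of these, 24.8% lay at least 10 points below that mean in replicate 2, 5.07% in replicate 1 and 1.45% in replicate 3. The sex-linked signals of same-numbered SHMT2 libraries differ between the assays, with Y-linked Ddx3y at 50.3 TPM in RNA-seq replicate 2 but only 186 cytosines read on chromosome Y in ERRBS replicate 2 (1125 and 1158 in replicates 1 and 3). Methylation and RNA were therefore not set side by side library by library.

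Sash1, at chr10:8722217-8945608 on the minus strand, with 1 annotated start at position 8886070 used here, had 0.899, 0.844 and 0.866 TPM in SHMT2 replicates 1 to 3, against 0.558, 4.76 and 4.82 TPM in vector replicates 1 to 3. Vector replicates 2 and 3 were high, the SHMT2 libraries lay close together, and vector replicate 1 lay below all of them, so the groups overlapped. The means were 0.870 ± 0.0273 TPM in SHMT2 and 3.38 ± 2.44 TPM in vector (SD, n = 3 each). On the log2(TPM + 1) scale, which understates the change of low genes, SHMT2 minus vector was −0.999 (SE 0.53, limma adjusted p = 0.384, exact permutation p = 0.4). No gene was called in this fit, 0% of the 11117 genes tested, while 1258 (11.3%) were higher and 600 (5.4%) lower at an unadjusted p under 0.05, and the smallest p of the exact test is 0.1.

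The call on Sash1 depended on which vector libraries entered. Leaving out vector replicate 1 gave a log2 fold change of −1.63 (SE 0.13, limma adjusted p = 0.0162), in a fit that called 414 genes lower (3.72%) and 431 higher (3.88%). Sash1 lay under 1 TPM in all libraries but vector replicates 2 and 3. It passed the filter, a mean of 1 TPM over all 6 libraries, only through that pair. The fit without vector replicate 1 sets SHMT2 against that same pair, so its p-value is no independent support. Without vector replicates 2 and 3 the log2 fold change of Sash1 was 0.26, with the lone vector library assumed to vary like the SHMT2 libraries. The 2 vector libraries with high Sash1 were also the ones with high markers of erythroid cells and neutrophils, given above, and of macrophages. The 14 macrophage genes summed to 380, 394 and 292 TPM in SHMT2 replicates 1 to 3 and to 216, 1294 and 1136 TPM in vector replicates 1 to 3. With vector replicate 1 left out, 13 of these 14 markers were called lower in SHMT2, beside 3.72% of all genes. So were 6 of 10 erythroid markers and 0 of the 6 neutrophil markers tested. That fit sets SHMT2 against the same high pair, so these calls follow from the choice and are no separate support. Cd163, 1 of the macrophage markers, reached the filter's mean of 1 TPM only through that pair. Endothelial cells are among those where SASH1 has been studied, and the sum of their 12 markers was 133 to 146 TPM in SHMT2 and 101, 183 and 142 TPM in vector, nearly all of it from Pecam1, which B cells and macrophages also express. The scarcer ones did not move together. Kdr had 0.871, 0.218 and 0.576 TPM in SHMT2 and 0.0442, 0.196 and 0.104 TPM in vector, higher in SHMT2 without overlap. Cdh5 had 2.31, 0.846 and 1.81 TPM in SHMT2 and 1.25, 2.59 and 1.00 TPM in vector, with overlap. Kdr and Cdh5 were also named after their values were seen. Some others were highest in the same pair of vector libraries. Stab2, a scavenger receptor of sinusoidal endothelium, had 0.658, 0.872 and 0.470 TPM in SHMT2 replicates 1 to 3, against 0.379, 4.39 and 3.36 TPM in vector replicates 1 to 3, and Egfl7, secreted by endothelium, had 0.563, 0.102 and 0.387 TPM in SHMT2, against 0.0519, 1.95 and 0.790 TPM in vector, both genes being named after their values were seen. Only 3 of the 12 reached a mean of 1 TPM, Pecam1, Cdh5 and Stab2, the last only through vector replicates 2 and 3. With vector replicate 1 left out 1 of these 3 was called lower, again against that same pair, so this call is no separate support. No macrophage or endothelial marker was at 0 in all libraries. The part of other cells in the Sash1 values was not tested, and in such bulk samples fewer cells of a type and less RNA per cell cannot be told apart.

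For each gene, the log2(TPM + 1) profile over the 6 libraries was centred on its own mean, and the 5 closest to Sash1 were taken. That these genes share its pair of high vector libraries follows from this choice and is no separate result. The genes were Gpr35, a G protein-coupled receptor, Dock4, an activator of the GTPase Rac, Gsr, the glutathione reductase, Ifitm2, an interferon-induced membrane protein, and Tlr13, a receptor for bacterial ribosomal RNA, with root-mean-square differences of 0.114 to 0.143 log2 units. Gpr35 had 6.48, 6.02 and 5.68 TPM in SHMT2 replicates 1 to 3, against 3.99, 21.1 and 22.8 TPM in vector replicates 1 to 3. Tlr13 had 0.724, 0.725 and 0.561 TPM in SHMT2, against 0.320, 3.19 and 3.20 TPM in vector. Like Sash1, Ifitm2 and Tlr13 reached the filter's mean of 1 TPM only through vector replicates 2 and 3.

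Sash3, at chrX:48146436-48161565 on the plus strand, had 104.5, 112.5 and 116.4 TPM in SHMT2 replicates 1 to 3, against 97.6, 80.8 and 86.2 TPM in vector replicates 1 to 3. Each SHMT2 library lay above each vector library, a pattern shown by 1875 of the genes tested (16.9%), while 918 (8.26%) showed the reverse. The means were 111 ± 6.09 TPM in SHMT2 and 88.2 ± 8.56 TPM in vector (SD, n = 3 each), a log2 fold change of 0.33 (SE 0.099) that did not pass (limma adjusted p = 0.212, unadjusted p = 0.0146, exact permutation p = 0.1, the smallest possible). Without vector replicates 2 and 3, the pair with high markers of other blood cells, the log2 fold change was 0.18. B cell markers moved with Sash3 in part, and their sum was lowest in vector replicates 2 and 3, at 7094 and 6995 TPM. Of these 10 markers, 5 were without overlap and higher in SHMT2 and 0 were lower without overlap. By log2 fold change 9 were higher, and Ebf1 was lower, with overlap (−0.12). Cd79a, a chain of the B cell receptor complex, had 737, 774 and 770 TPM in SHMT2 and 655, 522 and 631 TPM in vector. Cd22 overlapped, at 2513, 2624 and 2476 TPM in SHMT2 and 3394, 2110 and 2052 TPM in vector. These 3 markers were named after their values were seen. T cell and NK markers, from cells that also express Sash3, summed to 78.2 to 159 and 25.3 to 51.6 TPM in SHMT2, and to 90.3 to 115 and 27.0 to 84.3 TPM in vector. The part of any of these cells in the Sash3 values was not tested. The 5 nearest profiles were those of Higd2a, Bcar3, Cap1, Nol12 and Eif3c, with differences of 0.0168 to 0.0327 log2 units. Higd2a, a mitochondrial respiratory chain assembly factor, had 27.7, 29.3 and 31.0 TPM in SHMT2 and 25.7, 21.6 and 23.1 TPM in vector.

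Samsn1, at chr16:75858794-75909266 on the minus strand, had 32.6, 29.0 and 37.99 TPM in SHMT2 replicates 1 to 3, against 34.7, 22.4 and 31.5 TPM in vector replicates 1 to 3. The groups overlapped, vector replicate 2 being the lowest of the 6 and SHMT2 replicate 3 the highest. The means were 33.2 ± 4.53 TPM in SHMT2 and 29.5 ± 6.36 TPM in vector (SD, n = 3 each), with a log2 fold change of 0.18 (SE 0.19, limma adjusted p = 0.646, exact permutation p = 0.5). Without vector replicate 2 it was −0.0025 (SE 0.14, limma adjusted p = 0.993). The 5 nearest profiles, at 0.0562 to 0.0747 log2 units, were 6330403A02Rik, Kcnt2, Suclg2, Rnf113a1 and Glrx. Suclg2, a subunit of succinyl-CoA synthetase, had 10.2, 9.64 and 12.3 TPM in SHMT2 and 10.8, 7.57 and 11.4 TPM in vector.

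**Figure D1:**
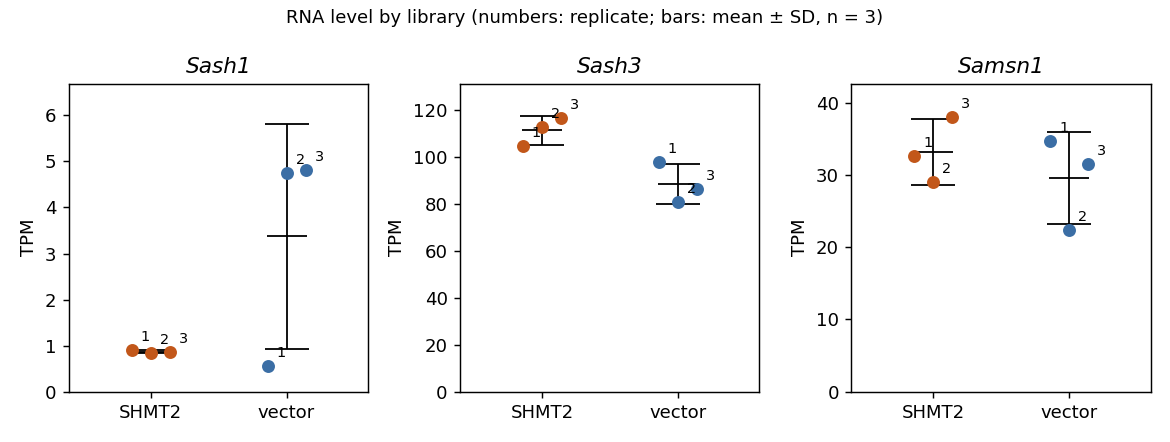
RNA level in TPM (y axis, linear from 0) of the 3 family genes in the 3 SHMT2 and 3 vector libraries, each point a library with its replicate number and the bars the mean ± SD. Sash1 was high in vector replicates 2 and 3 only, at 4.76 and 4.82 TPM, while the Sash3 values of SHMT2 lay above those of vector and the Samsn1 values overlapped.

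None of the listed signalling partners of SASH1 passed the test. The list held the receptor Tlr4 and the adaptor Myd88, the kinases and adaptors from Irak1 to the IKK complex, and the SASH1 binders Crkl and Cttn, 13 genes in all. All 13 were tested and 0 passed in either direction in limma, as in the fit as a whole (0% of genes), with a median log2 fold change of −0.05, beside 0.02 over all genes tested, and 0 higher and 1 lower at an unadjusted p under 0.05, beside 11.3% and 5.4% of all genes tested. The lower one was Ikbkg, the regulatory subunit NEMO of the IKK complex, at 961, 1090 and 999 TPM in SHMT2 and 1153, 1144 and 1387 TPM in vector (log2 fold change −0.27, limma adjusted p = 0.297). Myd88 had 937, 924 and 955 TPM in SHMT2 and 840, 849 and 853 TPM in vector, without overlap (0.15, limma adjusted p = 0.345). Ikbkg did not overlap either, so 1 gene of the list was higher and 1 lower without overlap, beside 16.9% and 8.26% of all genes tested. Tab1, a TAK1 binding protein, had 18.4, 21.0 and 17.7 TPM in SHMT2 and 22.6, 27.9 and 19.6 TPM in vector, with overlap. The receptor Tlr4 itself had 19.0, 22.6 and 22.1 TPM in SHMT2 and 22.2, 17.0 and 28.4 TPM in vector, with overlap.

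The partners of Sash3 and Samsn1 comprised 6 of the 14-3-3 genes, which encode phosphoserine-binding proteins, the kinase Lyn, the inhibitory receptor Pirb (listed as Lilrb3), the corepressor genes Sap30 and Hdac1, and Hcls1, an actin regulator of blood cells. Of these 11 genes 0 passed in limma, beside 0% of all genes. The median log2 fold change was 0.25, beside 0.02 over all genes, and 3 were higher and 0 lower at an unadjusted p under 0.05, beside 11.3% and 5.4% of all genes tested. Those 3 were 14-3-3 genes. Ywhab had 109, 111 and 117 TPM in SHMT2, against 98.8, 88.3 and 94.7 TPM in vector (log2 fold change 0.26, limma adjusted p = 0.220). Ywhaq had 34.6, 31.1 and 35.6 TPM in SHMT2 and 26.3, 26.1 and 29.8 TPM in vector (0.29, limma adjusted p = 0.239). Ywhae had 292, 346 and 345 TPM in SHMT2 and 296, 228 and 208 TPM in vector, with overlap at vector replicate 1 (0.44, limma adjusted p = 0.255). Without vector replicate 1, Ywhae (0.59, limma adjusted p = 0.0454) passed as higher and Lilrb3 (−0.93, limma adjusted p = 0.0455) as lower, in a fit that called 3.88% of all genes higher and 3.72% lower, Lilrb3 being named here after its value was seen. Lilrb3 had 10.5, 7.66 and 7.62 TPM in SHMT2 and 6.29, 18.9 and 15.4 TPM in vector, high in the 2 vector libraries with high macrophage, neutrophil and erythroid markers, and the part of those cells in its values was not tested.

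Among other adaptor genes of lymphocytes, 21 were listed, 20 were tested, Gab1 being under 1 TPM on average, and 0 passed in limma, beside 0% of all genes. The median was 0.08, with 5 higher and 1 lower at an unadjusted p under 0.05, beside 11.3% and 5.4% of all genes tested. Lat2, which links the B cell receptor to calcium signalling, had 945, 883 and 951 TPM in SHMT2, against 754, 554 and 635 TPM in vector (log2 fold change 0.53, limma adjusted p = 0.204). Grap, a relative of the adaptor Grb2, had 179, 183 and 182 TPM in SHMT2 and 149, 112 and 132 TPM in vector (0.47, limma adjusted p = 0.204). Pag1, which recruits the inhibitory kinase Csk, had 109, 117 and 108 TPM in SHMT2 and 126, 144 and 179 TPM in vector (−0.41, limma adjusted p = 0.245). In these 3 genes the groups did not overlap, as in 16.9% of all genes on the higher side and 8.26% on the lower. Without vector replicate 1, Lat2, Grap and Sh2b2 passed as higher (limma adjusted p = 0.0329, 0.0382 and 0.0450) and Gab2 as lower (limma adjusted p = 0.0340), beside 3.88% and 3.72% of all genes, Sh2b2 and Gab2 being named after their values were seen. Gab2 had 0.666, 0.889 and 0.803 TPM in SHMT2 and 0.469, 3.10 and 2.37 TPM in vector. It was high in the same pair of vector libraries as the macrophage, neutrophil and erythroid markers, and the part of those cells in its values was not tested. Like Sash1, Gab2 reached the filter's mean of 1 TPM only through that pair.

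DNA around the Sash1 start was more methylated in 2 of the 3 SHMT2 libraries than in any vector library, and in the other SHMT2 library it was not. Within 1 kb of the start, 87 CpG cytosines, at 64 distinct CpG sites, were covered by at least 10 calls in all 6 libraries, between −609 and +241 bases. Their mean methylation was 23.1%, 54.0% and 9.34% in SHMT2 replicates 1 to 3, against 11.5%, 11.2% and 9.98% in vector replicates 1 to 3. SHMT2 replicate 2 was highest, replicate 1 next, and replicate 3 lay below all vector libraries, so the groups overlapped. The means were 28.8% ± 22.9 in SHMT2 and 10.9% ± 0.818 in vector (SD, n = 3 each), a difference of 17.9 points (exact permutation p = 0.4, with 0.1 the smallest possible). Without SHMT2 replicate 2 the difference was 5.32 points, and without SHMT2 replicate 3 it was 27.7 points.

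These values rested on 4388 to 5624 calls a library. Weighted by calls, the level was 24.2% (95% Wilson interval 23.1 to 25.4) in SHMT2 replicate 1, 54.7% (53.3 to 56.2) in SHMT2 replicate 2 and 9.35% (8.62 to 10.1) in SHMT2 replicate 3. In vector replicates 1 to 3 it was 12.6% (11.7 to 13.52), 12.03% (11.2 to 12.9) and 9.64% (8.85 to 10.5). The intervals cover counting error only, since reads without molecular identifiers are not independent molecules. Each interval is narrower than the differences among the 3 SHMT2 libraries, and none of them covers the spread between libraries.

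The higher level in those libraries ran along the whole window. In SHMT2 replicate 2 all 87 cytosines lay above all 3 vector libraries, 85 of them by at least 10 points, and 56 reached 50%. In SHMT2 replicate 1, 75 cytosines lay above all vector libraries, 35 by at least 10 points, and 2 reached 50%. In SHMT2 replicate 3, 21 lay above all vector libraries, and only 1 by at least 10 points. From the start to 250 bases into the gene, 58 cytosines averaged 24.4%, 59.6% and 9.49% in SHMT2 and 11.9%, 12.5% and 9.78% in vector. From −250 bases to the start, 13 cytosines averaged 19.1%, 44.9% and 10.8% in SHMT2 and 10.7%, 9.02% and 8.75% in vector. From −500 to −250 bases, 12 cytosines averaged 18.1%, 42.5% and 6.33% in SHMT2, and 9.81%, 9.45% and 11.9% in vector. The 22 cytosines read in the printed promoter sequence averaged 19.1%, 50.8% and 10.6% in SHMT2 and 8.35%, 8.41% and 7.26% in vector.

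**Figure D2:**
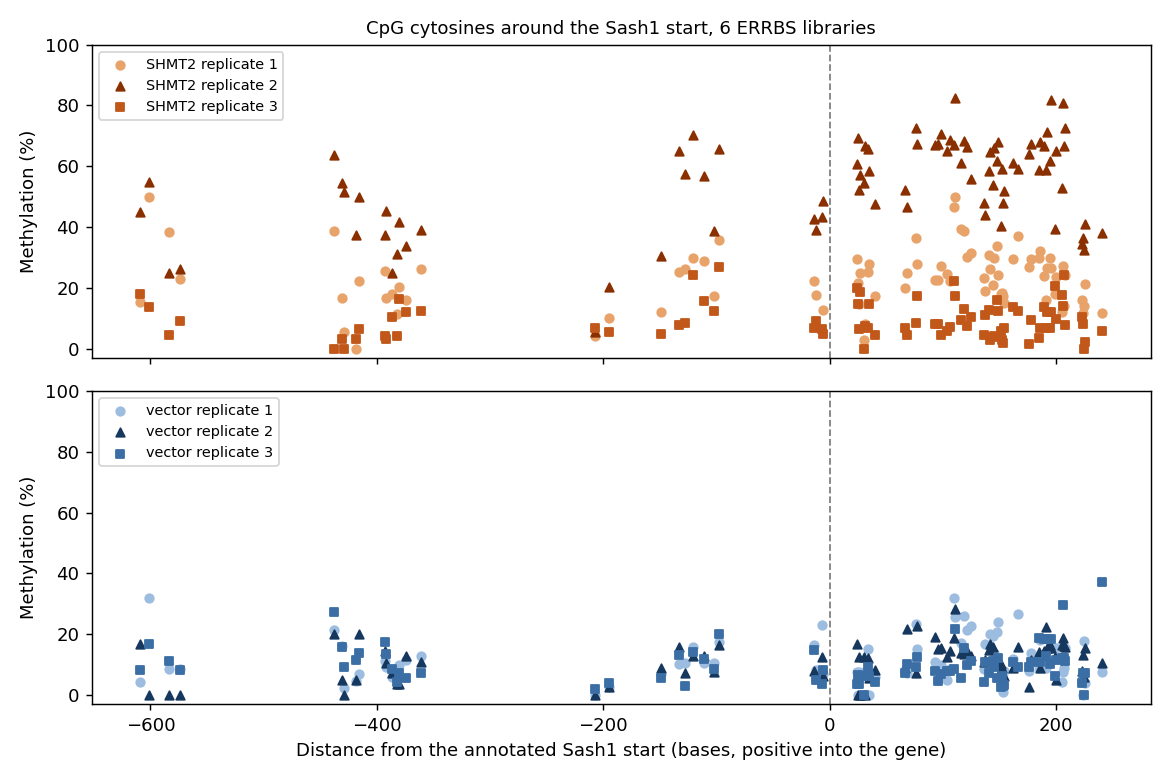
Methylation in percent (y axis) of the 87 CpG cytosines near the Sash1 start against their distance from it in bases (x axis, dashed line at the start), with the 3 SHMT2 libraries in the upper panel and the 3 vector libraries in the lower one, each point a cytosine. SHMT2 replicate 2 reached 82.6% and SHMT2 replicate 1 reached 50%, while SHMT2 replicate 3 stayed at or under 26.8% and the vector libraries at or under 37.0%.

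Away from its start the long Sash1 gene was highly methylated in both groups. Of 19 tiles of 1 kb tested across the 223 kb span, the tiles chr10:8885001-8886000 and chr10:8886001-8887000 hold the start region. The first, with 47 cytosines, had 26.7%, 61.1% and 9.30% in SHMT2 and 14.5%, 13.3% and 9.88% in vector, a difference of 19.8 points (quasi-binomial fit with moderated dispersion, adjusted p = 0.899, unadjusted p = 0.140). The second, with 40 cytosines, had 20.3%, 46.1% and 9.42% in SHMT2 and 9.93%, 9.51% and 9.32% in vector, a difference of 15.7 points (same fit, adjusted p = 0.899, unadjusted p = 0.0952). Neither was called, nor was any of the 91371 tiles tested (0%), of which 1630 (1.78%) were higher and 1670 (1.83%) lower at an unadjusted p under 0.05. Applied to the mean percent of each tile, limma also called 0 tiles, with 3630 at an unadjusted p under 0.05. Without SHMT2 replicate 2 the differences were 5.44 and 5.29 points, and without SHMT2 replicate 3 they were 31.4 and 23.6 points (quasi-binomial fit, adjusted p = 0.426 and 0.421, unadjusted p = 0.0145 and 0.0101). In the fit without SHMT2 replicate 3, 5 of the 19 Sash1 tiles were under 0.05 unadjusted, and 0 with all libraries. The start used lies inside the span, which on the minus strand begins at position 8945608. The tested tile nearest that end was chr10:8891001-8892000.

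The other 17 tiles of Sash1 had medians of 87.5%, 78.9% and 91.5% in SHMT2 replicates 1 to 3 and of 88.5%, 90.7% and 86.4% in vector replicates 1 to 3. In SHMT2 replicate 2, 10 of these 17 tiles were the lowest of the 6 libraries. The median difference was −2.61 points, 7 tiles were higher in SHMT2, and none reached an unadjusted p under 0.05. Over the 105 cytosines of the span outside the window the mean was 87.1%, 77.4% and 89.8% in SHMT2, against 87.5%, 90.1% and 86.9% in vector, a difference of −3.37 points (exact permutation p = 0.5). Over the whole span, 192 cytosines averaged 58.1%, 66.8% and 53.3% in SHMT2 and 53.1%, 54.3% and 52.0% in vector, a difference of 6.28 points (exact permutation p = 0.2).

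**Figure D3:**
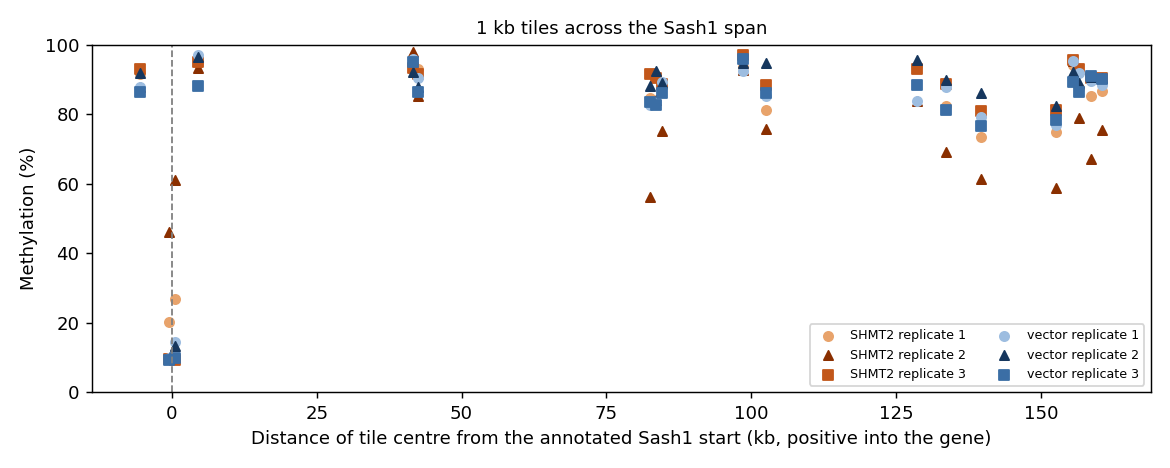
Methylation in percent (y axis) of the 19 tested 1 kb tiles of the Sash1 span against the distance of the tile centre from the start in kb (x axis), each point a library. The 2 tiles at the start were low in vector and higher in SHMT2 replicates 1 and 2, whereas in the other 17 tiles SHMT2 replicate 2 was the lowest library 10 times.

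Set against other lowly methylated DNA, the start tiles of Sash1 ranked high in both SHMT2 libraries that were high. Among the 12895 autosomal tiles with at least 20 cytosines and a vector mean under 20%, the tile chr10:8885001-8886000 lay 48.6 points above the vector mean in SHMT2 replicate 2, a difference that it shared with 2 other tiles at most (3 tiles in all, 0.0233%). In SHMT2 replicate 1 it lay 14.1 points above, which 62 tiles (0.481%) reached, and in SHMT2 replicate 3 it lay at −3.26 points. The tile chr10:8886001-8887000 lay 10.7 points above the vector mean in SHMT2 replicate 1, 36.5 points above it in replicate 2 and at −0.163 points in replicate 3, and 0.985% and 1.09% of the tiles reached the values of replicates 1 and 2. Both tiles were among the 88 (0.682%) that lay at least 10 points above in both replicates. These are the 2 SHMT2 libraries in which the Sash1 start was high, so the share describes it and is no separate support. The tile set was also chosen by a low vector mean, which limits how high its vector libraries could lie. Vector libraries were each set against the mean of the other vector libraries. The first tile lay at 2.90, 1.12 and −4.03 points in vector replicates 1 to 3, values that 5.66%, 2.05% and 98.9% of the tiles reached. For the second tile these shares were 21.8%, 60.1% and 84.7%. Differences of a few points thus also ranked toward the ends of this set, and a rank alone does not show a large change. SHMT2 replicate 2 was also the library in which lowly methylated tiles in general were higher and highly methylated ones lower, and the part of that shift in the Sash1 value was not tested.

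**Figure D4:**
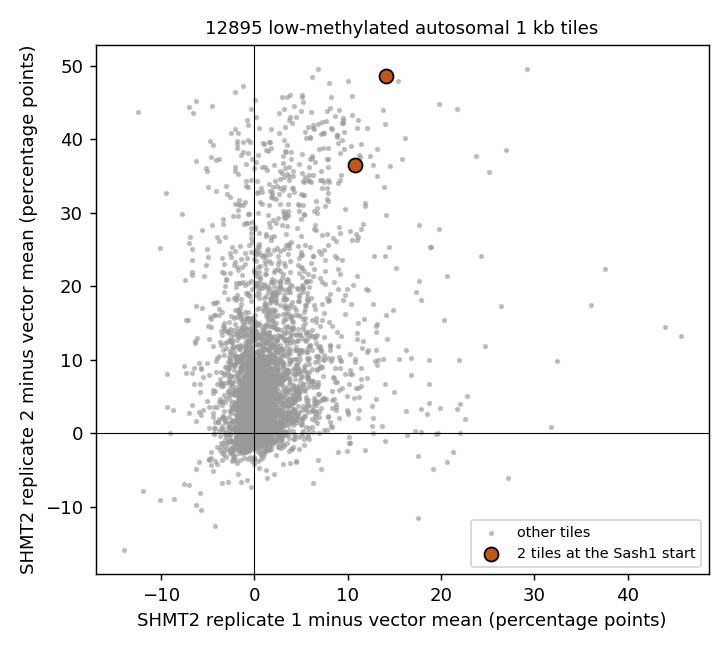
Difference in methylation from the vector mean, in percentage points, of 12895 lowly methylated autosomal 1 kb tiles in SHMT2 replicate 1 (x axis) and SHMT2 replicate 2 (y axis), each grey point a tile. The 2 tiles at the Sash1 start, in orange, lay at 14.1 and 10.7 points in replicate 1 and at 48.6 and 36.5 points in replicate 2, among the 88 tiles at least 10 points up in both. Replicates 1 and 2 are the SHMT2 libraries in which the Sash1 start was high.

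Sash3 and Samsn1 were barely read by ERRBS. Within 1 kb of the Sash3 start, 2 cytosines of CpG sites in the printed promoter had calls in all 6 libraries, with means of 0%, 20.8% and 0% in SHMT2 and 36.4%, 0% and 5.31% in vector (difference −6.97 points, exact permutation p = 0.7). The values of 0 rested on 119, 111 and 107 calls in SHMT2 replicate 1, SHMT2 replicate 3 and vector replicate 2, which allow up to 2.52%, 2.70% and 2.80% from counting alone. Sash3 is X-linked, and the same SHMT2 replicate 2 and vector replicate 1 carried high methylation at starts across the X chromosome, where 9547 cytosines averaged 8.79%, 40.1% and 7.94% in SHMT2 and 35.97%, 7.79% and 11.2% in vector. Those were also the libraries with few chromosome Y cytosines, 186 in SHMT2 replicate 2 and 185 in vector replicate 1, against 1095 to 1158 in the other 4. At autosomal starts the means were 5.93%, 8.08% and 5.22% in SHMT2 and 5.72%, 5.11% and 5.36% in vector. The part of the X chromosome's state in the Sash3 values was not tested.

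In the body of Sash3, 3 cytosines averaged 89.5%, 66.4% and 94.4% in SHMT2 and 89.2%, 92.3% and 90.8% in vector (difference −7.31 points, exact permutation p = 0.8), and no tile had enough cytosines for the fit. At Samsn1 no cytosine within 1 kb of the start was read. Its 3 body cytosines, in the single tested tile chr16:75872001-75873000, averaged 97.9%, 79.7% and 90.0% in SHMT2 and 91.7%, 94.5% and 75.4% in vector (difference 2.02 points, exact permutation p = 0.8, and adjusted p = 0.971 for the tile in the quasi-binomial fit). With 3 cytosines a gene, a difference in either body smaller than the spread between libraries was not detectable.

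Sash3 and Samsn1 carried both chromatin marks in every list, and Sash1 carried little of either. H3K4me3 marks active starts, and H3K4me1 marks enhancers and the flanks of starts. Folds are the enrichment that the authors' peak caller gave each peak, and were ranked only within a list; those of different lists stand side by side as values, with no comparison. Peaks were called in each library alone, and the lists differed in length, with 48993 and 52056 H3K4me1 peaks in SHMT2 against 37274 and 33119 in vector, covering 114 and 118 Mb in SHMT2 against 77.5 and 62.6 Mb in vector, and with 34458 to 38249 H3K4me3 peaks in SHMT2 against 33313 and 33806 in vector, covering 27.4 to 34.0 Mb in SHMT2 against 24.9 and 27.5 Mb in vector. With 2 against 2 lists the smallest exact p is 0.333 and with 3 against 2 it is 0.2, so peaks were compared as values.

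Sash3 carried strong H3K4me3 at its start in all 5 lists, with folds of 36.4, 34.7 and 29.8 in SHMT2 lists and 25.4 and 37.2 in vector. These peaks ranked above 77.7% to 85.4% of the peaks of their SHMT2 lists and above 75.8% and 84.4% in vector. Bases of the 15.1 kb span under H3K4me3 were 3360, 3189 and 3163 in SHMT2, against 2820 and 3247 in vector, with overlap. In 31.5% of 12609 spans with an H3K4me3 peak in every list all SHMT2 lists covered more bases than all vector lists, and in 1.32% fewer, and Sash3 and Samsn1 were among neither. H3K4me1 lay upstream and downstream of the start, and covered 6977 and 7498 bases of the span in SHMT2 and 6887 and 5889 in vector, without overlap. Among 11062 gene spans with an H3K4me1 peak in every list, both SHMT2 lists covered more bases than both vector lists in 79.5%, and fewer in 0.461%, and the median ratio of covered bases, SHMT2 over vector, was 1.59, beside 1.13 at Sash3. Upstream of the start, a single H3K4me1 peak of 10673 and 5967 bases came up to the start region in the SHMT2 lists, where the vector lists had separate peaks of 2141 and 1487 bases and of 2198 and 1564 bases. Of 21631 gene spans, 51.1% held an H3K4me1 peak in every list and 58.3% an H3K4me3 peak in every list, and Sash3 and Samsn1 were among both. An H3K4me3 peak in every SHMT2 list and no vector list was found in 0.407% of spans and the reverse in 0.0139%, and none of the 3 genes was among either.

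Samsn1 was marked at its start and at places inside the gene. Folds of H3K4me3 at the start were 19.7, 17.5 and 17.3 in SHMT2 lists and 23.3 and 23.8 in vector lists. Covered bases were 1981, 2193 and 2170 in SHMT2, against 2079 and 1252 in vector. A separate H3K4me3 peak inside the gene, chr16:75894395-75894870 in SHMT2 replicate 5 and 14396 to 14871 bases from the start, was found in the 3 SHMT2 lists, with folds of 4.57, 7.85 and 6.41, and in vector replicate 4, with a fold of 4.96, and not in vector replicate 6. H3K4me1 covered 12664 and 13545 bases of the 50.5 kb span in SHMT2 and 11694 and 11572 bases in vector, without overlap, a ratio of 1.13 beside the same median of 1.59. Peaks near chr16:75892868-75896868 and chr16:75877018-75878312, as placed in SHMT2 replicate 4, were present in all 4 H3K4me1 lists.

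At Sash1, H3K4me3 at the start was absent from the list of SHMT2 replicate 4, and had folds of 6.03 and 4.41 in the lists of SHMT2 replicates 5 and 6 and of 5.31 and 4.01 in those of vector replicates 4 and 6. These peaks covered 556 and 208 bases in SHMT2 and 301 and 333 bases in vector, and lay within −509 to +51 bases of the start, over the stretch whose methylation differed between libraries. They ranked above only 26.9% and 2.89% of the peaks of their SHMT2 lists and 15.2% and 3.24% in vector. H3K4me1 covered 1298 and 1347 bases of the span in SHMT2 replicates 4 and 5, against 0 and 0 in vector replicates 4 and 5. A peak in both SHMT2 lists and neither vector list was found in 5.15% of gene spans, and the reverse in 0%. Both SHMT2 lists had a peak upstream of the start used here but inside the gene span, which on the minus strand begins at position 8945608. It was chr10:8925354-8925781 with a fold of 2.95 in SHMT2 replicate 4 and chr10:8925282-8926628 with a fold of 3.15 in SHMT2 replicate 5. Only SHMT2 replicate 4 had one at the start, chr10:8885597-8886466, with a fold of 2.63 that exceeded 1.67% of the peaks in its list. These folds are near the lower end of longer lists, and the part of list length in the H3K4me1 difference was not tested. At a −log10 q of at least 10, no H3K4me1 peak was left in any of the 3 genes.

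**Figure D5:**
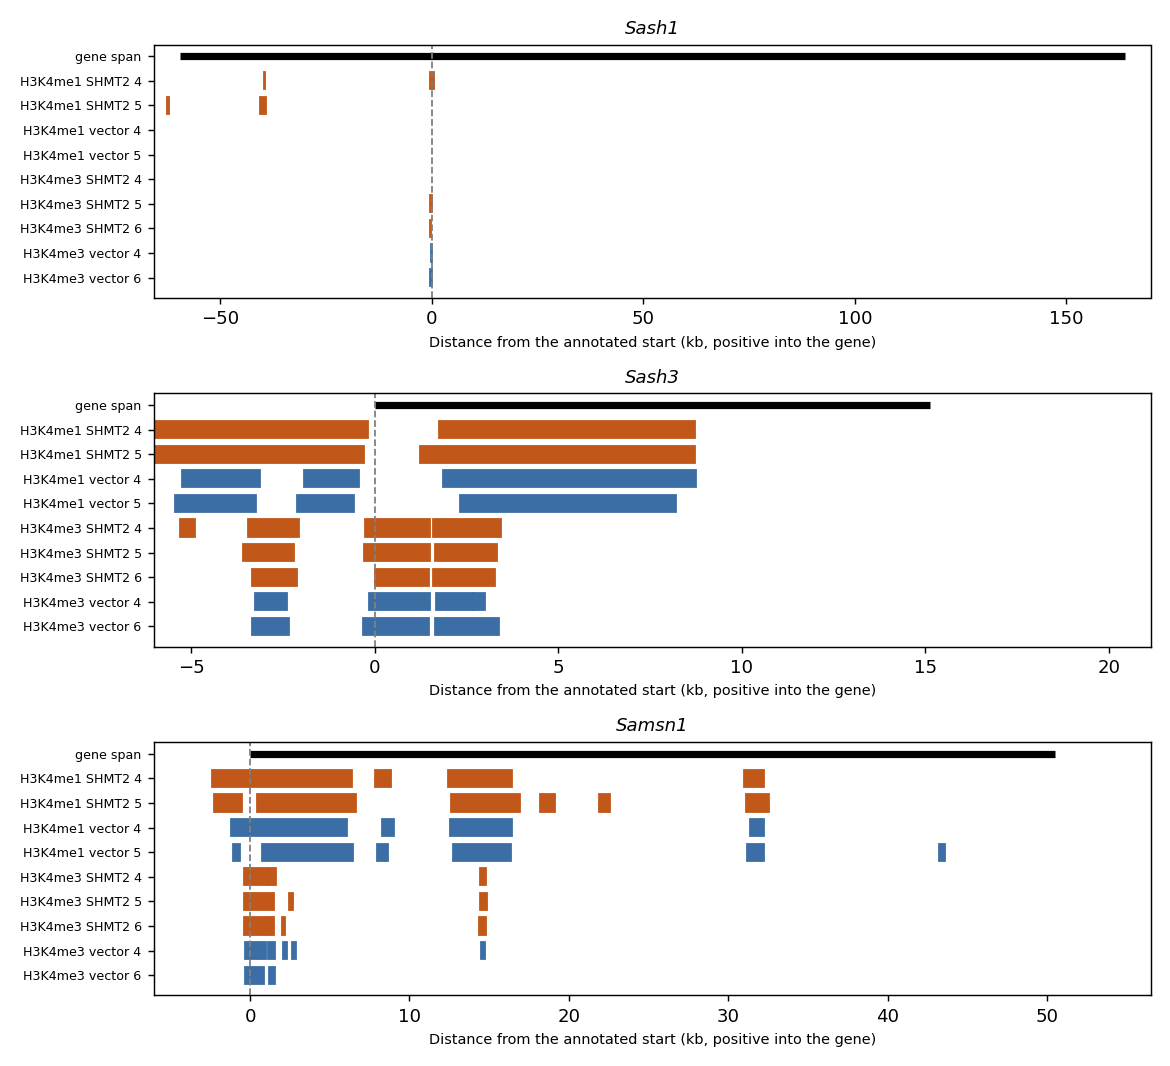
Peaks of H3K4me1 and H3K4me3 in each library, SHMT2 in orange and vector in blue, against the distance from the annotated start in kb (x axis), with the gene span as a black bar and 6 kb shown beyond it. Sash3 and Samsn1 had peaks within 1 kb of the start in all lists, and Sash1 had a start peak of H3K4me3 in 4 of 5 lists and H3K4me1 peaks in the SHMT2 lists only.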

How the data were processed

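The 3 genes and the gene lists were chosen with earlier results of these data known. RNA-seq values are TPM made by the authors, 1 table a library. STAR and mm10 are named in the submitters' processing notes, no source used here names the tool that made TPM, and depth is unknown. Per the labels, the RNA kit keeps strand. ERRBS tables give, per the file headers, a count of calls (coverage) and the percent read as C for each CpG cytosine, with Bismark, Bowtie2 and mm10 in the processing notes. No cytosine under 10 calls is listed, mean coverage was 63.0 to 71.6 calls, and 1330329 to 1424104 cytosines were listed a library. The deposited peak lists give a fold enrichment and a −log10 q-value for each peak, called for each library alone, with BWA, MACS2 and mm10 in the processing notes, and no source used here says whether input served as control. The 6 input libraries were not used here.

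Groups came from the titles. RNA was tested with limma 3.58.1 in R 4.3.3 on log2(TPM + 1), without a block, over genes averaging 1 TPM or more (trended empirical Bayes, Benjamini-Hochberg, adjusted p under 0.05). Methylated and total calls were summed in fixed 1 kb tiles with at least 3 cytosines covered in all 6 libraries, on autosomes and X, drawn from 1235163 such cytosines. Tiles were fitted with a quasi-binomial model whose dispersion was moderated with limma (floor 1), and called at an adjusted p under 0.05 and 10 points. Single values were compared with two-sided exact permutation tests in scipy 1.17.1. Both fits were tested on simulated data. Gene spans and starts are RefSeq's (GRCm38.p6). Named genes were the members, Shmt2, the 5 nearest profiles of each member, the 3 genes of smallest p in each list, and others where stated. Alternatives were another pseudocount, no filter, quantile normalization, a replicate block, coverage, tile, window and peak settings, and each library left out.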

Additional observations from a re-analysis of the deposited data

How the results depend on the processing

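Libraries were not treated as paired, since the labels give no more than a shared number. Same-numbered libraries deviated from their group means with correlations of −0.42, −0.33 and −0.058 in RNA-seq and −0.147, −0.355 and −0.043 in ERRBS. Between differently numbered libraries the correlations ran from −0.146 to 0.40 in RNA-seq and from −0.26 to 0.33 in ERRBS. Deviations within a group of 3 are tied to each other, so these correlations cannot decide whether libraries were paired. With the replicate block, limma called 0 genes and the quasi-binomial fit 0 tiles (1180 and 2671 at an unadjusted p under 0.05, against 1858 and 3300 without it), and no call on the 3 genes changed. Without vector replicates 2 and 3 together, the log2 fold change was 0.26 for Sash1, 0.18 for Sash3 and −0.071 for Samsn1. With all libraries these were −0.999, 0.33 and 0.18. With each library left out in turn, the log2 fold changes ranged from −1.63 to −0.68 for Sash1, from 0.27 to 0.41 for Sash3 and from −0.0025 to 0.30 for Samsn1. Genes called ranged from 0 to 845, the SLY partners called from 0 to 2, and the lymphocyte adaptors called from 0 to 4, all from leaving out vector replicate 1. Methylation differences ranged from 5.32 to 27.7 points at the Sash1 start, from −13.9 to 4.26 at the Sash3 start, from −12.8 to 1.20 in the Sash3 span and from −3.90 to 6.77 in the Samsn1 span. The sign turned at the Sash3 start without vector replicate 1 (4.26), in the Sash3 span without SHMT2 replicate 2 (1.20), and in the Samsn1 span without SHMT2 replicate 1 (−2.34) or vector replicate 3 (−3.90), regions with 2 or 3 cytosines. H3K4me1-covered bases of the spans, SHMT2 minus vector, were 1323 for Sash1, 849.5 for Sash3 and 1472 for Samsn1. With 5 kb added at both ends they were 1468, 2259 and 2696. At a −log10 q of at least 10 they became 0, 0 and 0, since no H3K4me1 peak of these spans reached that cut in either group. The highest values were 7.72 in SHMT2 and 4.52 in vector, so this setting could not show a difference. H3K4me3-covered bases of Sash3 became 578 with the added 5 kb, beside 204. With each list left out in turn, H3K4me1 differences ranged from 1298 to 1347 bases at Sash1, from 350.5 (without vector replicate 5) to 1349 (without vector replicate 4) at Sash3 and from 1031 to 1912 at Samsn1. H3K4me3 differences ranged from −213 (without SHMT2 replicate 5) to 65 (without SHMT2 replicate 4) at Sash1, where the sign turned from −62.3, from −9.67 (without vector replicate 4) to 417 (without vector replicate 6) at Sash3, where it turned from 204, and from 35.7 (without vector replicate 6) to 863 (without vector replicate 4) at Samsn1, beside 449. Among the named genes, Lat2, Grap and Ywhae passed without vector replicate 1. The Samsn1 start and the Sash3 tiles gave no value under any setting. No cause of these changes was tested.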

Other observations

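Some tiles of Sash3 and Samsn1 had too few cytosines for the fit and are given as values. The tile chrX:48160001-48161000, near the end of Sash3, held 7 cytosines, of which SHMT2 replicate 1 had 2. Their methylation was 89.3%, 81.1% and 97.6% in SHMT2 replicates 1 to 3 and 88.1%, 94.2% and 84.0% in vector replicates 1 to 3. The tile chr16:75904001-75905000 in Samsn1 held 2 cytosines, at 92.6% and 100.0% in SHMT2 replicates 2 and 3, with none read in SHMT2 replicate 1, against 88.5%, 95.5% and 78.1% in vector. Both lay downstream of the start inside a gene whose start carried H3K4me3.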
